A study of Homo sapiens with 12 samples.

Results

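The comparison described here is that of MEF2C knockout (KO) with wild-type (WT) human induced microglia-like cells (iMGLs) that received no lipopolysaccharide (LPS), read across all genes. Its members are the libraries whose labels give the genotype KO or WT and the treatment control, 3 KO and 3 WT, so 6 of the 12 libraries of the series. Both groups were differentiated from H1 human pluripotent stem cells, an established embryonic stem cell line. The WT cells were unedited, and the KO cells came from H1 cells in which MEF2C had been knocked out. The kind of edit and the number of clones were not given in the sources used here, so differences between the genotypes cannot be told apart from differences between clones. The libraries are labelled as biological replicates. No label says which cultures or clones they came from, and the p-values then measure only the spread between these libraries. The other 6 libraries held WT and KO cells with LPS (2 each) and KO cells with LPS and the compound BMS265246 (2). The 4 LPS libraries without the compound serve below as a separate measurement of the genotype difference.

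MEF2C is a DNA-binding transcription factor of the MEF2 family, which is named after muscle but is also strongly expressed in neurons and microglia. MEF2 proteins bind an A/T-rich motif, act with co-activators such as EP300, and are held inactive by class IIa histone deacetylases. In microglia, MEF2C is one of the factors found at enhancers of genes of the mature, resting state, and loss of it has been linked to a stronger reaction to inflammatory stimuli. The comparison asks what differs between the genotypes before any stimulus is given.

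Between 13888283 and 17604814 read counts per library fell on genes. Levels are given as CPM, each library's counts scaled to a common total with TMM factors, and 3 counts, the upper limit that a count of 0 allows, corresponded to 0.154 to 0.193 CPM. Such limits and intervals cover counting error only, because PCR copies are not independent molecules. Pairs of replicates correlated at Pearson's r of 0.9917 to 0.9931 across genes, which are not independent replicates, and no pair agreed within sampling noise (chi-square per degree of freedom 2.071 to 3.701). The first principal component held 77.6% of the variance and separated WT from KO. The share of mitochondrially encoded transcripts was 1.22% to 1.45% in WT and 1.03% to 1.21% in KO.

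The label microglia was checked against marker genes. Of 16 microglia and macrophage markers, 15 passed the filter on low counts. All 15 were detected in both groups, which follows in part from that filter. By the test given below, 4 of the 15 were called higher and 6 lower in KO, with a median change of -0.01. That is 66.7% called, against 21.6% of all genes tested. The summed level of the 16 was 9421 to 9648 CPM in WT and 9195 to 9605 CPM in KO. CSF1R, the receptor that microglia need for survival, stood at 2114, 2117 and 2104 CPM in WT. TMEM119, a marker of resident microglia, was low at 29.3 ± 2.31 CPM in WT and 27.4 ± 1.35 CPM in KO (SD, n = 3 each), and SALL1, a defining microglial transcription factor, did not pass the filter on low counts. Of the pluripotency markers, POU5F1, NANOG and SOX2 failed the filter and LIN28B alone passed it. The mast cell and eosinophil genes CLC, CPA3, HDC and MS4A2 were present in every library, which is taken up with the granule genes below.

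Changes are log2 fold changes of KO over WT with their standard errors, from edgeR's quasi-likelihood fit, and a gene was called where the 2-sided p, adjusted by Benjamini-Hochberg over all 16022 genes tested, was under 0.05. KO cells differed from WT in 3463 genes, 21.6% of those tested. Of these, 1635 were higher (10.2%) and 1828 were lower (11.4%). The counts of calls in each gene list below are to be read against these shares. Changes of at least 2-fold were called in 590 genes (3.68%), and here rises were more frequent, 399 (2.49%) against 191 (1.19%). With genes limited to a mean of at least 5 CPM, 219 such changes were left. The median change over all genes tested was -0.015, with quartiles of -0.171 and 0.166. In 6466 genes (40.4%) no KO library overlapped any WT library, so non-overlap alone is common in these data. In bulk RNA, fewer cells of a type and less RNA per cell cannot be told apart, and this holds for each result below.

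**Figure D1:**
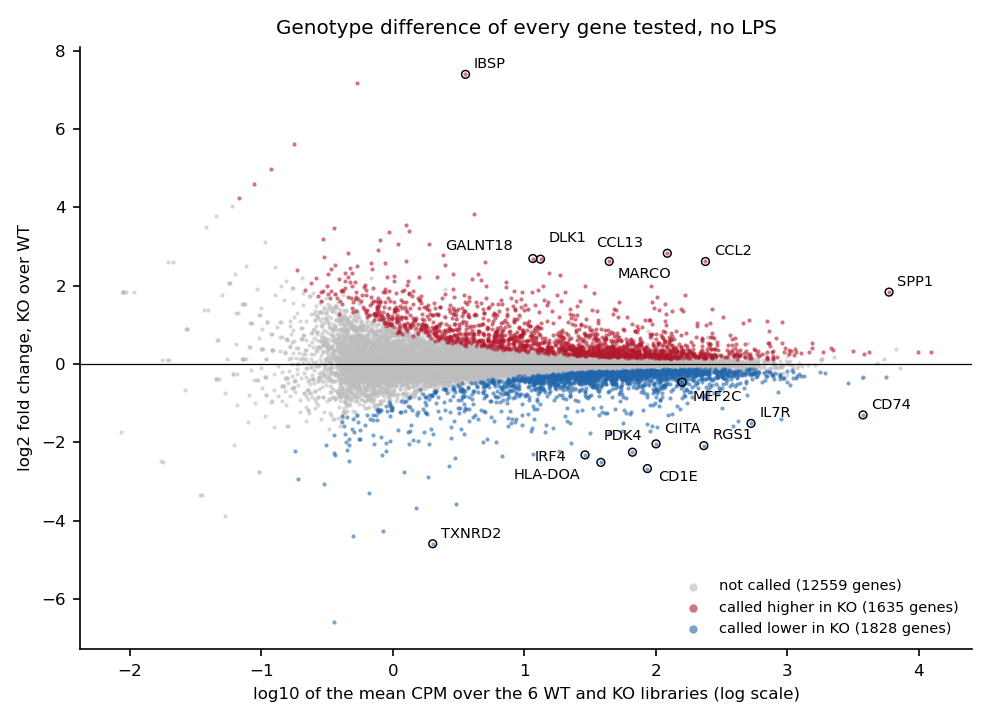
Log2 fold change of KO over WT against mean level (log10 CPM over the 6 libraries), 1 point per gene tested with at least 1 count in these libraries; red and blue points are called higher and lower. The chemokines CCL13 and CCL2 and the osteopontin gene SPP1 lie high among abundant genes, while CD1E, CIITA, CD74 and IL7R lie low; fold changes of genes near 0 in 1 group depend on the prior count.

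MEF2C itself (ENSG00000081189, chromosome 5, 88717117 to 88904257, minus strand, GRCh38) kept a transcript in KO cells. It measured 192, 183 and 177 CPM in WT and 136, 129 and 135 CPM in KO. All KO libraries lay below all WT libraries, with a change of -0.47 ± 0.05 (adjusted p = 4e-07). Groups were likewise apart in 40.4% of all genes tested. A gene-level count does not show which exons are present, so it does not tell whether the remaining transcripts encode protein. Its antisense gene MEF2C-AS1 was near the detection limit, 0.959 ± 0.263 CPM in WT and 0.957 ± 0.412 CPM in KO (SD, n = 3 each).

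Among the partners of MEF2C, HDAC9, a class IIa deacetylase that binds and represses MEF2 factors, showed the largest difference. It stood at 18.6, 16.3 and 17.1 CPM in WT and at 5.48, 5.64 and 5.64 CPM in KO, with a change of -1.63 ± 0.11 (adjusted p = 2.45e-10). Every KO library was below every WT library, and groups were likewise apart in 40.4% of all genes tested. The paralog MEF2A rose by 0.25 ± 0.06 and the MEF2-activating kinase gene MAPK7 by 0.51 ± 0.12. MEF2D (-0.11 ± 0.07), HDAC4, HDAC5 and HDAC7 were not called. Of 15 tested genes of this family and its cofactors, 2 were higher and 4 lower. That total of 6 fell to 3 without WT replicate 2 and to 3 without KO replicate 3, while HDAC9 kept its call in all 13 alternative analyses.

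The largest rises among genes averaging at least 5 CPM were led by CCL13, a chemokine that attracts monocytes and eosinophils. It measured 32.9, 29.4 and 28.7 CPM in WT and 224, 210 and 211 CPM in KO, a change of 2.82 ± 0.07 (adjusted p = 7.83e-18). GALNT18, a glycosyltransferase of mucin-type O-glycosylation, measured 2.81, 3.39 and 3.14 CPM in WT and 20.9, 20.1 and 19.5 CPM in KO (2.69 ± 0.12). DLK1, an imprinted gene for a Notch-ligand-like membrane protein, measured 3.19, 4.06 and 3.55 CPM in WT and 21.0, 25.2 and 22.8 CPM in KO (2.67 ± 0.17). The rule that chose these genes required groups that do not overlap, so their separation is not a result. The macrophage scavenger receptor MARCO, which binds bacteria and particles, measured 14.1, 10.9 and 12.2 CPM in WT and 75.4, 75.7 and 77.5 CPM in KO (2.62 ± 0.08). F13A1, the coagulation factor XIII A subunit that marks perivascular and tissue macrophages, measured 7.61, 6.12 and 5.66 CPM in WT and 30.4, 32.9 and 29.7 CPM in KO (2.26 ± 0.10). ID1, a target of BMP signalling that blocks helix-loop-helix factors, measured 10.4, 12.5 and 12.2 CPM in WT and 39.3, 53.8 and 46.9 CPM in KO (1.99 ± 0.22). The remaining rises of this set were CCL2, FCGR3B, FPR2, HS3ST2, CYP19A1, the oestrogen-producing aromatase, and RAB3IL1, with changes from 1.99 to 2.61.

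The largest falls were led by CD1E, whose product takes part in lipid antigen presentation. It measured 155, 144 and 149 CPM in WT and 24.2, 23.5 and 22.7 CPM in KO, a change of -2.67 ± 0.06 (adjusted p = 7.83e-18). IRF4, a transcription factor of lymphocytes and of dendritic cells that present on MHC class II, measured 47.7, 49.2 and 48.2 CPM in WT and 7.93, 10.4 and 10.5 CPM in KO (-2.32 ± 0.10). P2RY10, a G protein-coupled receptor for lysophospholipids, measured 32.0, 29.1 and 30.3 CPM in WT and 6.96, 6.03 and 6.71 CPM in KO (-2.22 ± 0.12). The falls were chosen by the same rule, and their separation is likewise no result. RGS1, a GTPase-activating protein that dampens chemokine receptor signalling, measured 435, 354 and 339 CPM in WT and 109, 75.3 and 82.0 CPM in KO (-2.09 ± 0.16). CALHM2, a subunit of large-pore ATP-releasing channels, measured 34.8, 37.9 and 37.1 CPM in WT and 7.67, 10.1 and 9.02 CPM in KO (-2.03 ± 0.12). TGM5, a transglutaminase gene, measured 19.5, 18.6 and 19.9 CPM in WT and 3.67, 3.96 and 4.19 CPM in KO (-2.29 ± 0.12). HLA-DOA, FOSB, PDK4, CIITA, HLA-DQB1 and the transcribed pseudogene AC138207.6 completed the 12 falls, with changes from -2.51 to -1.92.

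**Figure D2:**
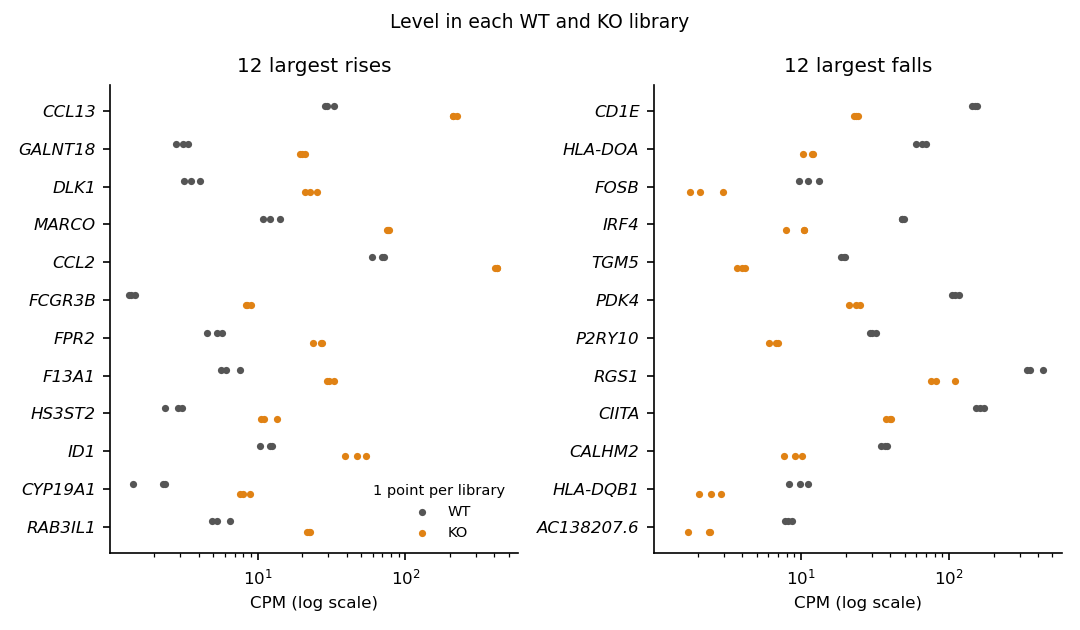
CPM (log axis) of the 12 largest called rises and the 12 largest called falls in each of the 3 WT (grey) and 3 KO (orange) libraries. The genes were taken from those whose groups did not overlap, so the gap between the colours follows from that choice; CCL13 goes from 28.7 to 32.9 CPM in WT to 210 to 224 CPM in KO, and CD1E from 144 to 155 CPM to 22.7 to 24.2 CPM.

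Most transcripts of the MHC class II presentation list were lower in KO cells. Class II molecules display peptides from endosomes to CD4+ T cells, their transcription needs CIITA together with the RFX complex, and the invariant chain CD74 and the HLA-DM proteins assist loading. Of 19 genes tested in this pathway, 14 fell, 10 of them by at least 2-fold, none rose, and the median change was -1.03 (all genes tested: -0.015). The summed level of the listed genes was 9979 to 10320 CPM in WT and 4992 to 5087 CPM in KO.

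CIITA, the co-activator that switches class II genes on, measured 151, 172 and 163 CPM in WT and 37.6, 40.5 and 39.8 CPM in KO. The fall was -2.04 ± 0.06 (adjusted p = 2.06e-16), and the separation of its groups follows from the rule that chose it. CD74 measured 5358, 5396 and 5369 CPM in WT and 2132, 2255 and 2147 CPM in KO (-1.30 ± 0.08). HLA-DRA, the DR alpha chain, measured 1404, 1249 and 1280 CPM in WT and 519, 481 and 481 CPM in KO (-1.41 ± 0.05). HLA-DOA, a modulator of HLA-DM, fell furthest, from 70.0, 59.5 and 66.1 CPM to 10.3, 12.1 and 11.8 CPM (-2.51 ± 0.09). HLA-DPA1 (-1.46 ± 0.05), HLA-DPB1 (-1.62 ± 0.07), HLA-DQA1 (-1.27 ± 0.06) and HLA-DMA (-0.9996 ± 0.07) fell as well. Reads of the polymorphic HLA genes can be shared or lost between near-identical copies, so the values of HLA-DQB1, HLA-DRB1 and HLA-DRB5 are uncertain. Of the RFX complex, RFX5 fell by 0.49 ± 0.05 on the log2 scale, while RFXAP (-0.04 ± 0.15) and RFXANK (0.06 ± 0.08) were not called. The endosomal proteases CTSS (-0.05 ± 0.05) and LGMN (0.13 ± 0.05) were not called either.

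The 5 CD1 genes, which present lipids to T cells and lie in 1 cluster on chromosome 1, all fell, with a median of -1.71. CD1C measured 145, 131 and 136 CPM in WT and 40.5, 42.4 and 43.0 CPM in KO (-1.71 ± 0.06), and CD1A 69.7, 67.0 and 66.3 CPM in WT and 20.8, 19.8 and 19.002 CPM in KO (-1.77 ± 0.07). CD1B (-0.46 ± 0.09) and CD1D (-0.42 ± 0.06) fell less. Beyond these, 11 of 27 dendritic cell genes fell and 4 rose. The falls included LAMP3 (-1.72 ± 0.15), a lysosomal protein of mature dendritic cells, the Langerhans cell lectin CD207 (-1.29 ± 0.17), and the lectin CLEC10A (-0.83 ± 0.06). CCL17, a T cell chemokine of such cells, fell from 2.13 ± 0.395 to 0.309 ± 0.0888 CPM (SD, n = 3 each). The co-stimulatory genes CD86 (-0.07 ± 0.05) and CD83 (0.02 ± 0.05) and the factor IRF8 (0.04 ± 0.05) were not called, so the group did not move as a whole.

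**Figure D3:**
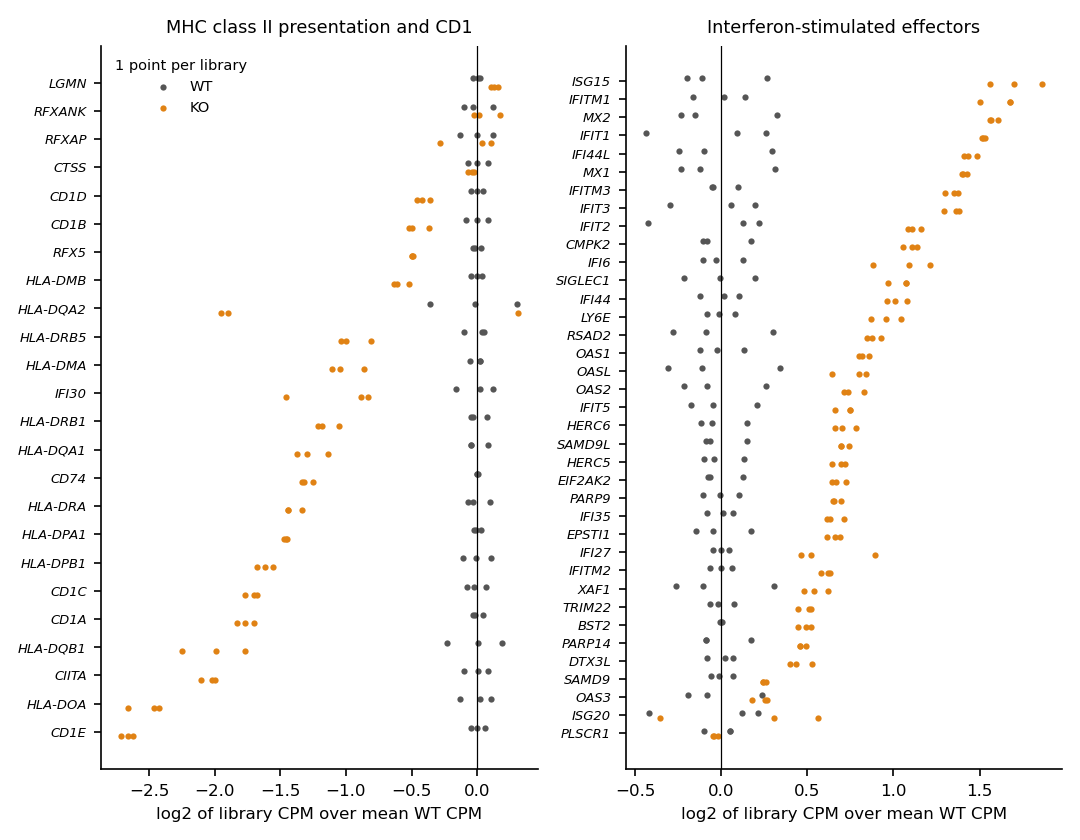
Log2 of each library's CPM over the mean of the 3 WT libraries for the tested genes of MHC class II presentation and CD1 (left) and the interferon-stimulated effectors (right), WT grey and KO orange, genes ordered by fold change. From HLA-DMB down to CD1E on the left the KO points lie below the WT points except for HLA-DQA2, and on the right they lie above them for nearly all genes; WT libraries of interferon-stimulated genes are more spread than KO libraries.

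Interferon-stimulated effector genes were higher in KO cells without any stimulus. They encode antiviral proteins such as the MX GTPases, the IFIT RNA-binding proteins and the OAS enzymes, and are switched on when an interferon-activated complex that contains STAT2 and IRF9 binds the interferon-stimulated response element (ISRE) in their promoters. Of 37 tested, 34 rose, 13 of them by at least 2-fold, none fell, and the median change was 0.72. Only PLSCR1 (-0.03 ± 0.05), ISG20 (0.21 ± 0.30) and OAS3 (0.24 ± 0.08) were not called.

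Most of these genes, called or not, share a promoter motif. In RefSeq promoters on GRCh38.p14 (250 bases before to 50 after each start), the ISRE core, GAAA and GAAA with any 2 bases between them, was searched on both strands, with overlapping matches counted. It stood in 21 of the 29 effector genes with a window (72.4%), against 996 of all 27305 windows (3.65%) and 2.98% of windows of genes tested. The share was 5.09% for genes called higher and 2.49% for those called lower. Among genes changed by at least 2-fold it was 3.79% for those higher and 2.86% for those lower. For MHC class II genes the core stood in 0 of 17 windows. The match is a description of letters and not a measured site. Stretches upstream of 5 of the risen genes are given 5′ to 3′ on the gene's strand, with each ISRE core in capitals, to show how the copies are arranged.

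ISG15 (chr1:1013364-1013419, plus strand): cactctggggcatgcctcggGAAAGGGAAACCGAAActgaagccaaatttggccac
IFIT1 (chr10:89392487-89392549, plus strand): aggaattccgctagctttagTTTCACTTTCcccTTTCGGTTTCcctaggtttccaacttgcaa
IFIT3 (chr10:89327821-89327904, plus strand): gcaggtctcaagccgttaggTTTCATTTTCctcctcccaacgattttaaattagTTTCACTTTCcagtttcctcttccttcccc
IFITM3 (chr11:320866-320932, minus strand): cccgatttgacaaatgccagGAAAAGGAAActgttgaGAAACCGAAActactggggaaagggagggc
BST2 (chr19:17405725-17405780, minus strand): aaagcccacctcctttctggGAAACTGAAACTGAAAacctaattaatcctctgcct

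Each of these windows held 2 matches, overlapping in ISG15 and BST2 and apart in the others. The effectors that were not called, PLSCR1, ISG20 and OAS3, held matches too. ISG15, the ubiquitin-like modifier, measured 41.9, 57.9 and 44.6 CPM in WT and 142, 175 and 156 CPM in KO (1.71 ± 0.20, adjusted p = 0.000525). IFIT1 measured 64.7, 72.5 and 44.7 CPM in WT and 174, 173 and 175 CPM in KO (1.52 ± 0.15). IFITM3, which blocks viral entry in endosomes, measured 72.5, 80.03 and 72.3 CPM in WT and 184, 194 and 191 CPM in KO (1.34 ± 0.08). All KO values exceeded all WT values in these genes, and groups were likewise apart in 40.4% of all genes tested. For IFIT1 the WT libraries differed among themselves more than the KO libraries did. MX1 showed this too, at 134, 181 and 124 CPM in WT and 385, 387 and 393 CPM in KO (1.41 ± 0.12). IFIT3 rose by 1.34 ± 0.11 and BST2, which tethers virions, by 0.49 ± 0.06.

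The genes that sense nucleic acid and carry the interferon signal moved in both directions, with 8 of 28 higher and 7 lower (9 in all instead of 15 without KO replicate 3). USP18, a feedback inhibitor of the receptor that is itself induced by interferon, rose by 1.41 ± 0.10 and the cytosolic RNA sensor gene RIGI by 0.90 ± 0.08. The endosomal RNA receptor TLR7 fell by 0.63 ± 0.07 on the log2 scale and the kinase JAK1 by 0.24 ± 0.05, and IRF1 (-0.16 ± 0.06) and IRF9 (0.19 ± 0.16) were not called. IFNB1, the gene of interferon beta, did not pass the filter. Guanylate-binding protein and APOL genes, typical responders to interferon gamma, split into 4 higher and 3 lower of 10, with APOL4 among the falls (-1.14 ± 0.08) and APOL6 among the rises (0.36 ± 0.06).

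Of 26 chemokine genes tested, 13 were higher, 7 of them by at least 2-fold, 1 was lower, and the median was 0.46. The ligands of CCR2, which recruit monocytes, led, and their genes lie in 1 cluster on chromosome 17. CCL2 (34255218 to 34257203) measured 72.1, 70.0 and 59.2 CPM in WT and 415, 414 and 403 CPM in KO (2.61 ± 0.06, adjusted p = 1.77e-16). CCL7 (34270221 to 34272242) measured 0.270, 1.13 and 0.206 CPM in WT and 7.93, 8.38 and 6.87 CPM in KO (3.82 ± 0.31). CCL8 (34319036 to 34321402) measured 1.08, 1.13 and 0.720 CPM in WT and 4.25, 4.75 and 5.42 CPM in KO (2.30 ± 0.19). With CCL13 at the far end, all 4 rose. The groups of CCL7 and CCL8 did not overlap, as in 40.4% of all genes tested. For CCL2 and CCL13 the separation follows from the rule that chose them. The neutrophil attractants CXCL1 (1.20 ± 0.08), CXCL8 (0.64 ± 0.06), CXCL5 (0.80 ± 0.13) and CXCL3 (0.69 ± 0.14) rose as well. CCL3 (-0.18 ± 0.17), CCL4 (-0.07 ± 0.13) and the interferon-induced T cell attractant CXCL10 (0.05 ± 0.60) were not called, and reads of CCL3 and CCL4 can be shared with their near-identical copies.

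Genes of receptors for chemokines and for other attractants did not rise together. FPR2, a receptor for formyl peptides and amyloid fragments, rose from 5.78, 5.29 and 4.53 CPM to 27.1, 26.7 and 23.9 CPM (2.31 ± 0.09), and FPR1 by 0.61 ± 0.05. The relative FPR3 fell (-0.70 ± 0.06), as did CCR2 (-0.46 ± 0.07) and the fractalkine receptor CX3CR1 (-0.51 ± 0.06). Of 23 receptors tested, 7 were higher and 8 lower, with a median of 0.00. Among 43 cytokine and growth factor genes, 12 rose and 2 fell, so 32.6% were called, against 21.6% of all genes tested. IL1B (0.08 ± 0.05) and TNF (-0.40 ± 0.14, adjusted p = 0.0560) were not called. The death receptor ligand TNFSF10, an interferon-induced gene, rose by 0.94 ± 0.09, INHBA, an activin subunit, by 0.87 ± 0.09, and NRG1 from 0.139 ± 0.0580 to 0.810 ± 0.359 CPM (SD, n = 3 each). The WT mean of NRG1 lay below the level of 3 counts in WT libraries, 0.154 to 0.162 CPM, so the size of its rise is uncertain. PDGFB, a growth factor for pericytes, fell by 1.57 ± 0.14 on the log2 scale.

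Scavenger receptors, which take up modified lipoproteins, haemoglobin and debris, rose in 10 of 18 genes and fell in 2, with a median of 0.45. CD163, the haemoglobin scavenger, measured 529, 516 and 522 CPM in WT and 950, 908 and 944 CPM in KO (0.84 ± 0.04). MSR1 (0.84 ± 0.06), FOLR2 (0.83 ± 0.06), COLEC12 (0.79 ± 0.05) and the mannose receptor MRC1 (0.65 ± 0.05) rose by similar amounts. LYVE1, a hyaluronan receptor of perivascular macrophages, went from 0.324, 0.154 and 0.103 CPM in WT to 2.19, 2.23 and 2.52 CPM in KO, so it was at the detection limit in 2 WT libraries. OLR1, a receptor for oxidised LDL, fell by 0.41 ± 0.05 on the log2 scale.

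Monocyte and granule genes rose in 13 of 20 and fell in 2, with a median of 0.61. S100A9, a calcium-binding alarmin of monocytes and neutrophils, measured 75.5, 76.6 and 77.9 CPM in WT and 259, 259 and 255 CPM in KO (1.75 ± 0.05, adjusted p = 3.05e-16). Its partner S100A8 measured 29.7, 24.2 and 28.96 CPM in WT and 69.0, 63.6 and 67.5 CPM in KO (1.27 ± 0.08). VCAN (1.63 ± 0.16), MNDA (1.13 ± 0.06) and CSF3R, the G-CSF receptor (0.70 ± 0.06), rose, and CCR2 and the complement factor properdin, CFP (-0.83 ± 0.11), fell. Markers of granulocytes and mast cells were higher in 8 of 12 tested and lower in none. That marker list shares members with the monocyte and granule list, CSF3R among them. The summed level of the markers was 836.8 to 894 CPM in WT and 1057 to 1092 CPM in KO. The defining neutrophil granule genes MPO, AZU1 and PRTN3 did not pass the filter, and ELANE had no count in any of the 6 libraries. CPA3 (0.29 ± 0.06), HDC (0.32 ± 0.05) and TPSAB1 (0.84 ± 0.14), which encode mast cell proteins, rose. Their part in the result was not tested.

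Receptors for antibody rose in 7 of 12 genes, 5 by at least 2-fold, and fell in 2. FCGR1A, the high-affinity IgG receptor, measured 29.7, 26.9 and 26.3 CPM in WT and 74.2, 71.5 and 69.8 CPM in KO (1.38 ± 0.07). FCGR3A measured 464, 418 and 452 CPM in WT and 988, 932 and 951 CPM in KO (1.11 ± 0.05). The inhibitory FCGR2B went the other way (-0.80 ± 0.09). FCGR1A and FCGR1BP, FCGR3A and FCGR3B, and FCGR2A to FCGR2C are near-identical copies, so how reads were split among them is uncertain. Of 27 leukocyte immunoglobulin-like and sialic acid-binding receptors, 15 rose and 2 fell, with a median of 0.34. LILRA5 (1.13 ± 0.05), LILRB5 (1.25 ± 0.07), SIGLEC14 (1.01 ± 0.07) and SIGLEC1 (1.04 ± 0.09), the last one an interferon-stimulated gene, rose. The inhibitory receptor LILRB4 fell from 5.06 ± 0.518 to 1.60 ± 0.415 CPM (SD, n = 3 each). Sequence similarity within these families makes single members uncertain in the same way.

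Genes of the resting microglial state gave a mixed picture, with 5 of 24 higher, 9 lower and none changed by 2-fold or more in either direction. GAS6, a bridge between dying cells and TAM receptors, fell by 0.88 ± 0.13 on the log2 scale, ITGB5 by 0.55 ± 0.06, and CSF1R by 0.23 ± 0.04. P2RY12, the ADP receptor of process extension, had a change of -0.37 ± 0.11, and its call was lost in 5 of the 13 alternative analyses. TMEM119 (-0.10 ± 0.08) and GPR34 (-0.12 ± 0.06) were not called. The TAM receptor genes moved in opposite directions. MERTK measured 82.5, 77.1 and 81.8 CPM in WT and 163, 155 and 161 CPM in KO (0.99 ± 0.05), whereas AXL measured 217, 231 and 222 CPM in WT and 139, 134 and 138 CPM in KO (-0.71 ± 0.05). In neither gene did the groups overlap, as in 40.4% of all genes tested.

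Of 26 genes that mark disease-associated microglia, 11 rose and 5 fell, with a median of 0.17. SPP1, which encodes the secreted phosphoprotein osteopontin, was the largest rise, from 2637, 2902 and 2293 CPM in WT to 9590, 9323 and 8994 CPM in KO (1.83 ± 0.07). LPL (0.56 ± 0.05), CTSL (0.51 ± 0.05) and CHI3L1 (0.36 ± 0.04) rose by less. CST7, a cystatin of this state, fell by 1.28 ± 0.11 on the log2 scale and GPNMB by 0.39 ± 0.04. APOE was not called, at 5437, 5768 and 6261 CPM in WT and 6716, 8320 and 7544 CPM in KO (0.37 ± 0.23). Complement genes split into 8 higher and 5 lower of 22. VSIG4, a complement receptor of tissue macrophages, rose by 0.55 ± 0.04 and CR1 by 0.60 ± 0.06, while C3 (-0.46 ± 0.04) and C1QB (-0.35 ± 0.05) fell. Of 39 genes at Alzheimer risk loci, 13 rose and 4 fell. TREML2 (1.35 ± 0.11), CLU (0.86 ± 0.08), MS4A4A (0.80 ± 0.08) and CD33 (0.46 ± 0.06) were among the rises, and the sorting receptor SORL1 (-0.72 ± 0.05), which carries the amyloid precursor, was among the falls.

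Genes of Toll-like receptor and NF-kB signalling were lower more often than higher, 10 against 4 of 29. The A20 deubiquitinase gene TNFAIP3, a brake on NF-kB, fell by 0.85 ± 0.05 on the log2 scale, the inhibitor NFKBIA by 0.41 ± 0.05 and NFKB1 by 0.35 ± 0.05. TLR10 fell from 30.8 ± 1.68 to 11.2 ± 1.48 CPM, and TLR4, the LPS receptor, by 0.25 ± 0.07 on the log2 scale, a call lost in 1 alternative analysis. TLR2 rose by 0.79 ± 0.05 and the adaptor MYD88 by 0.30 ± 0.05. Of 20 inflammasome and cell death genes, 4 were called, a share near that over all genes (9 in a fit of the 6 libraries alone). NLRC5 (1.02 ± 0.08) and MEFV (1.17 ± 0.24) rose and NLRP3 (-0.25 ± 0.05) and NLRC4 (-0.37 ± 0.06) fell.

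Immediate early genes, which respond within minutes to a signal, were lower in 11 of 26 and higher in 5. FOSB measured 11.2, 13.3 and 9.67 CPM in WT and 2.96, 2.07 and 1.77 CPM in KO (-2.34 ± 0.18). The orphan receptor NR4A1, a known MEF2 target, fell from 22.2 ± 1.49 to 6.68 ± 0.251 CPM (SD, n = 3 each), and NR4A2 by 1.48 ± 0.12 on the log2 scale. FOS (-0.80 ± 0.12), EGR3 (-0.63 ± 0.09) and ZFP36 (-0.63 ± 0.07) fell too, while KLF4 (1.51 ± 0.15) and MYC (0.63 ± 0.11) rose. The cells were dissociated before RNA was extracted. Heat shock and dissociation genes, a list that such handling can move, were higher in 9 of 15 and lower in none, with a median of 0.31; their part in the immediate early result was not tested.

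Feedback regulators followed no single direction. Among MAP kinase phosphatases DUSP1 fell (-0.88 ± 0.10) and DUSP4 rose (0.79 ± 0.07). The Sprouty gene SPRY4, an inhibitor of growth factor signalling, rose from 2.45 ± 0.485 to 7.84 ± 0.897 CPM, and SPRY1 by 0.94 ± 0.14. Of 9 RGS genes, RGS1, RGS2 (-1.23 ± 0.11), RGS10 (-0.49 ± 0.07) and RGS12 (-0.33 ± 0.05) fell, whereas RGS3 (1.53 ± 0.15), RGS16 (0.57 ± 0.06) and RGS14 (0.39 ± 0.10) rose.

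Among 32 myeloid transcription factor genes, 10 rose and 9 fell. RUNX3, which shapes dendritic and Langerhans cells, measured 423, 441 and 454 CPM in WT and 195, 205 and 201 CPM in KO (-1.13 ± 0.06). BHLHE41, a regulator of alveolar macrophages and microglia, fell by 0.84 ± 0.04 on the log2 scale and ETS2 by 0.50 ± 0.04. SPI1 (0.08 ± 0.17), IRF8 and CEBPA (0.00 ± 0.13) were not called. Rises included LMO2 (0.75 ± 0.05) and TAL1 (0.57 ± 0.07), partners in blood stem cell transcription complexes. Among single genes of other lists, HMGA2, a chromatin protein of fetal cells, measured 5.24, 5.29 and 5.61 CPM in WT and 21.0, 18.4 and 20.2 CPM in KO (1.88 ± 0.10). LIN28B, which blocks maturation of let-7 microRNAs, measured 32.3, 34.2 and 31.3 CPM in WT and 52.1, 49.9 and 50.7 CPM in KO (0.64 ± 0.08). Of the chromatin modifiers, the methyltransferases SMYD3 (-1.21 ± 0.08) and DNMT1 (-0.67 ± 0.05) fell.

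Proliferation genes were lower in KO cells. None of 33 G2/M genes rose and 29 fell, with a median of -0.44, and none of 32 G1/S genes rose and 15 fell, with a median of -0.22. MKI67, the nuclear antigen of cycling cells, measured 384, 399 and 370 CPM in WT and 266, 264 and 276 CPM in KO (-0.52 ± 0.07). TOP2A (-0.55 ± 0.06), CENPF (-0.70 ± 0.08) and AURKB (-0.61 ± 0.07) fell by like amounts. Only E2F7 fell by at least 2-fold (-1.19 ± 0.19). In contrast, CCND1, the cyclin that drives entry into the cycle, rose from 23.9, 26.6 and 28.3 CPM to 72.1, 84.7 and 77.8 CPM (1.57 ± 0.07), and CDKN1A, the p21 inhibitor, from 278, 272 and 274 CPM to 438, 466 and 458 CPM (0.73 ± 0.06). MDM2 (0.02 ± 0.06) and the cell death gene BAX (0.15 ± 0.06) were not called.

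Of 33 PPAR target and fatty acid oxidation genes tested, 8 were higher and 9 lower, with a median of 0. PDK4, which blocks pyruvate dehydrogenase when fat is burned, measured 117, 104 and 109 CPM in WT and 24.9, 21.1 and 23.3 CPM in KO (-2.25 ± 0.09). CPT1A, the rate-limiting carnitine palmitoyltransferase, measured 60.4, 56.6 and 58.0 CPM in WT and 25.5, 24.7 and 22.7 CPM in KO (-1.27 ± 0.07), and SLC25A20, the carnitine carrier, 62.1, 55.1 and 60.2 CPM in WT and 34.5, 33.2 and 32.0 CPM in KO (-0.83 ± 0.07). In CPT1A and SLC25A20 the groups were apart, as in 40.4% of all genes tested. For PDK4 the separation follows from the rule that chose it. All 3 are known targets of PPAR receptors, and the lipid droplet gene PLIN2 (-0.53 ± 0.05), another target, fell too. The PPAR targets CD36 (0.55 ± 0.06) and LPL, and PPARG itself (0.66 ± 0.13), rose. ACADM (0.00 ± 0.06) and CPT2 (0.05 ± 0.10), further along the pathway, were not called.

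The promoter window of CPT1A, 1 of 4 among genes lower by at least 2-fold with a match to the MEF2 consensus motif, is shown in part because CPT1A is the one among them in the fatty acid oxidation list (RefSeq, GRCh38.p14, 5′ to 3′ on the gene's strand, match in capitals).

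CPT1A (chr11:68844278-68844325, minus strand): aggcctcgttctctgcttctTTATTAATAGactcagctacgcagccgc

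Over promoter windows as a whole the motif was rare in both directions. It was in 1.49% of windows of genes tested, 1.42% for genes called lower and 2.22% for genes called higher, and in 4 of 105 windows of genes lower by at least 2-fold (3.81%) and 9 of 264 of those higher (3.41%). Among all windows of the table the share was 3.09%. A match is no evidence of binding, and MEF2 factors also bind far from promoters, which these windows do not cover.

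Glycolytic and hypoxia genes rose in 10 of 30 and fell in 2, by small amounts, among them the hexokinase HK3 (0.70 ± 0.06) and the glucose transporter SLC2A3 (0.56 ± 0.05). Cholesterol synthesis genes had a median of 0.01. Among amino acid genes, the cystine transporter SLC7A11, which feeds glutathione synthesis, fell from 35.2 ± 3.52 to 15.4 ± 0.577 CPM (SD, n = 3 each), and the serine synthesis enzyme gene PHGDH by 0.86 ± 0.09 on the log2 scale. The cationic transporter SLC7A2 rose by 0.90 ± 0.07. Of iron and heme genes, the endosomal iron exporter SLC11A1 (1.27 ± 0.07) and the biliverdin reductase BLVRA (1.32 ± 0.10) rose and HMOX1 fell (-0.32 ± 0.07). In lysosomes, CTSF fell from 7.70 ± 0.196 to 1.94 ± 0.208 CPM, and MFGE8, a bridge to dying cells, by 1.25 ± 0.08 on the log2 scale, while CTSC (0.32 ± 0.04) and LIPA (0.29 ± 0.05) rose.

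Matrix and protease genes were higher in 17 of 43 and lower in 10. The metalloprotease ADAMDEC1, a marker of gut and monocyte-derived macrophages, measured 614, 551 and 572 CPM in WT and 200, 190 and 192 CPM in KO (-1.58 ± 0.05). COL6A3 measured 82.3, 87.9 and 81.3 CPM in WT and 34.0, 30.9 and 24.6 CPM in KO (-1.50 ± 0.09), and COL6A1 (-0.80 ± 0.13) and COL6A2 (-0.86 ± 0.16), the other chains of collagen VI, fell with it. TIMP3 (1.04 ± 0.05), THBS1 (1.00 ± 0.05), CHIT1 (1.12 ± 0.05) and FN1 (0.30 ± 0.04) rose. None of the 8 mesenchymal markers tested was called, but all 8 were higher in KO, with changes from 0.34 to 1.39 and a median of 0.89. The summed level of the 10 markers listed was 17.01 to 34.34 CPM in WT and 27.38 to 70.18 CPM in KO, so these ranges overlapped. COL1A1 measured 3.08, 9.46 and 3.55 CPM in WT and 17.9, 11.8 and 6.33 CPM in KO, so its groups overlapped, and COL3A1 did likewise. Their part in the matrix result was not tested. Of the 8 mesenchymal markers tested, 2 were called without WT replicate 2 or without KO replicate 3, and 1 without WT replicate 3 or without KO replicate 1.

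Coagulation genes, several of which endothelial cells also express, rose in 8 of 21 and fell in 1. Tissue factor F3 rose from 13.5 ± 0.928 to 37.4 ± 3.40 CPM, thrombomodulin THBD by 1.36 ± 0.11 and the protease inhibitor SERPINA1 by 1.20 ± 0.05, and the protease trap A2M fell (-0.48 ± 0.04). Endothelial markers summed to 519.6 to 550.1 CPM in WT and 572.4 to 603.3 CPM in KO, with EMCN at 0 in all 6 libraries. Of 7 tested, 2 were higher and none lower, a share of 28.6%, against 21.6% of all genes tested. The part of endothelial markers in the coagulation result was not tested. Of 35 integrin and adhesion genes, ITGAE, the alpha E integrin (CD103) of tissue-resident lymphocytes and dendritic cells, had the largest fall (-1.76 ± 0.08), and its partner ITGB7 fell by 0.75 ± 0.07 on the log2 scale. Of 34 guidance genes, the netrin receptor UNC5B fell from 177 ± 8.03 to 72.0 ± 2.66 CPM, and PLXNA2 (0.75 ± 0.07) and NRP2 (0.52 ± 0.05) rose.

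Of 43 ion channel genes tested, 12 were higher and 9 lower, with a median of 0.03, and of 44 genes of receptors for purines, lipids and metabolites, 10 were higher and 14 lower, with a median of 0.01. TRPV4, an osmosensitive calcium channel, measured 9.56, 9.15 and 7.87 CPM in WT and 32.1, 31.7 and 31.6 CPM in KO (1.84 ± 0.10). KCNJ15, an inward-rectifier potassium channel, measured 0.378, 0.308 and 0.514 CPM in WT and 3.35, 3.24 and 3.54 CPM in KO (3.05 ± 0.25). The sphingosine receptor S1PR2 fell from 79.2 ± 2.00 to 35.0 ± 1.96 CPM and the oxysterol receptor GPR183 by 0.63 ± 0.06 on the log2 scale. GPR84, a receptor for medium-chain fatty acids, rose by 0.95 ± 0.06. IL7R, the interleukin-7 receptor, which fetal macrophages also express, measured 829, 787 and 745 CPM in WT and 270, 268 and 286 CPM in KO (-1.52 ± 0.05). It was the 1 lymphocyte marker called, and CD3D, CD3E and MS4A1 did not pass the filter.

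**Figure D4:**
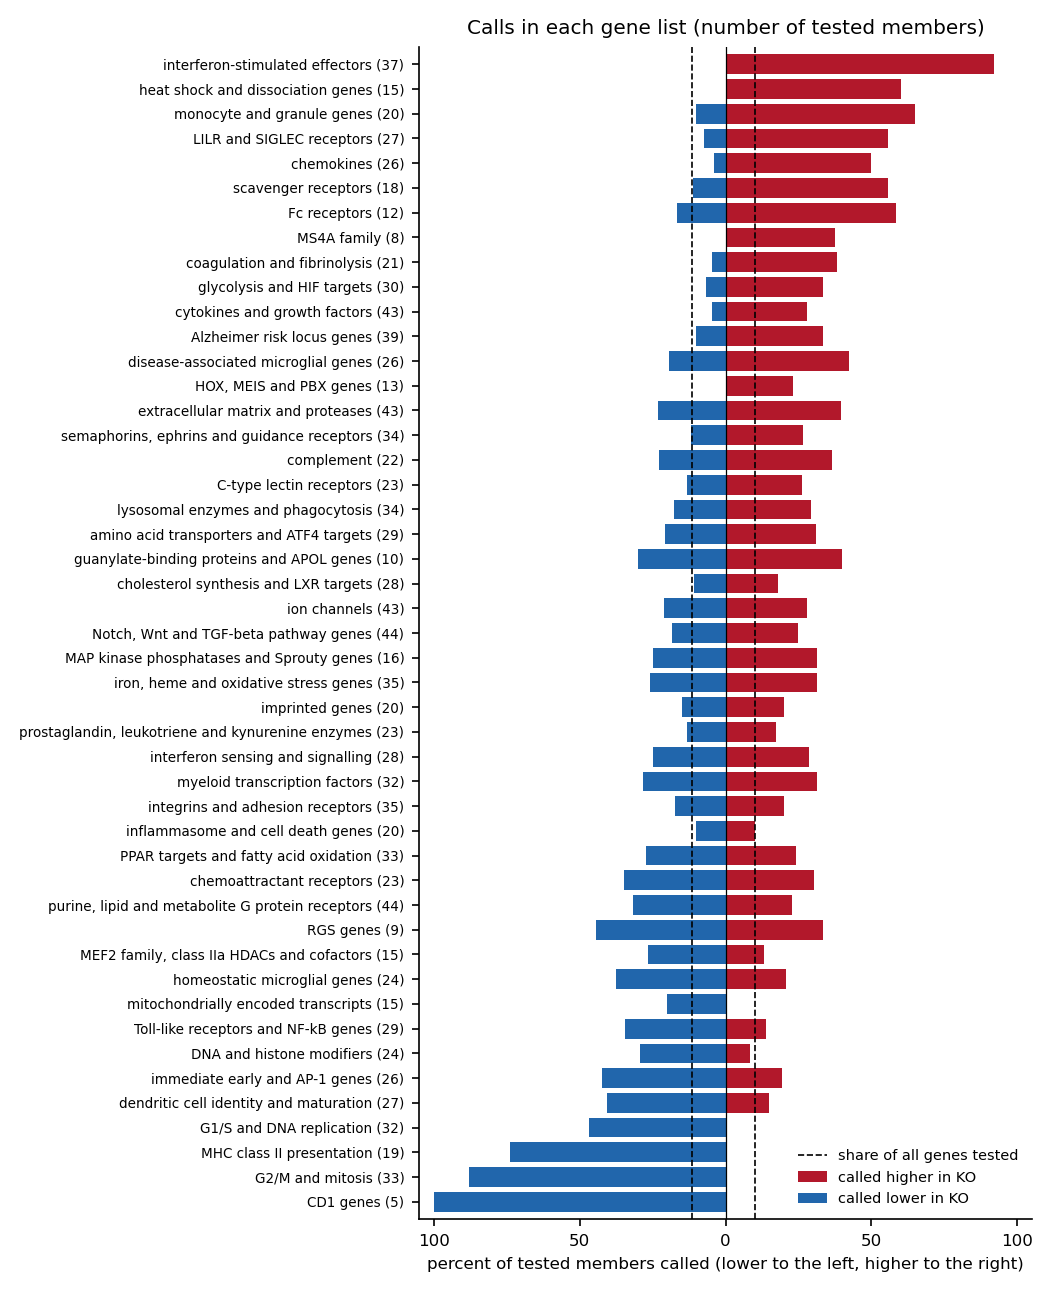
Percent of the tested members of each gene list shown called lower (blue, left) and higher (red, right) in KO; dashed lines mark the shares over all genes tested, 11.4% lower and 10.2% higher. Interferon-stimulated effectors lie at the top with 34 of 37 higher, and the CD1 genes, G2/M genes and MHC class II genes at the bottom. Most lists in between hold calls in both directions, several of them at shares near the dashed lines. The G1/S and mitochondrially encoded lists hold only lower calls. The heat shock and dissociation, MS4A, and HOX, MEIS and PBX lists hold only higher calls.

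Protein-coding genes were called more often than long non-coding RNAs, 24.4% of 13114 against 8.45% of 1869. The 4 largest rises and 4 largest falls among long non-coding RNAs averaging at least 2 CPM were set against their nearest tested protein-coding gene. In 7 of the 8, that gene was called with the same sign, and 4 of the 8 RNAs overlap theirs. Over all protein-coding genes tested, 24.4% were called in either direction. The same share for the other long non-coding RNAs was not computed. AC064805.1 (chromosome 17, 74599840 to 74607229) rose from 1.89, 1.59 and 2.11 CPM to 5.86, 5.58 and 5.58 CPM. It ends 2.7 kb from CD300E, an activating receptor of monocytes, which rose by 1.99 ± 0.06. AC023449.2 (chromosome 15, 25708470 to 25710869) fell from 3.67, 3.44 and 2.88 CPM to 0.902, 1.62 and 1.23 CPM and lies within ATP10A, a phospholipid flippase gene of the same strand, which fell by 1.72 ± 0.08 on the log2 scale. TSPEAR-AS1 rose by 1.77 ± 0.10 inside TSPEAR (1.57 ± 0.26), AC018755.4 by 1.67 ± 0.28 inside SIGLEC5 (1.77 ± 0.50), and AL139125.2 by 1.83 ± 0.15 beside SFMBT2 (0.39 ± 0.05). ITPR2-AS1 fell by 1.20 ± 0.19 on the log2 scale where it overlaps SSPN (-0.85 ± 0.12). AL138899.1 (-1.24 ± 0.15) lies between CD1D and CD1A. LINC02701 (-1.47 ± 0.16) had an uncalled nearest gene, MRPL21 (0.02 ± 0.09), and lies 26.3 kb from CPT1A. Whether reads were counted by strand was not given in the sources used here, so reads of 4 of these RNAs that overlap a gene cannot be told from that gene's reads. The call of SIGLEC5 was lost in 4 of the 13 alternative analyses.

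By chromosome, median changes of the 22 autosomes and X lay between -0.060 and 0.021. A few genes were near 0 in one genotype only. By a rule set after values were seen (a mean under 0.3 CPM in one group and over 2 CPM in the other), there were 5, all called. IBSP, which encodes bone sialoprotein, had 0, 0 and 2 counts in WT and 119, 121 and 129 counts in KO, a ratio of 204 with a 95% exact counting interval of 55.9 to 1690. IBSP (chromosome 4, 87799581 to 87812435) starts 176069 bases from SPP1, and MEPE (1.61 ± 0.67), which lies between them, was not called. TXNRD2, the mitochondrial thioredoxin reductase (chromosome 22, 19875517 to 19941992), went the other way, with 60, 75 and 88 counts in WT and 3, 1 and 4 counts in KO. The WT level was 25.3 times that of KO, with an interval of 12.6 to 59.3.

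With LPS, TXNRD2 differed again, with 41 and 35 counts in WT and 0 and 2 in KO. The remaining genes near 0 in one group were LYVE1 and TMTC1, higher in KO, and SVIL-AS1, lower in KO (66, 56 and 38 counts in WT and 1, 6 and 4 in KO). A4GALT, a glycosyltransferase gene picked after its values were seen, fell from 4.91, 5.65 and 6.17 CPM to 0.516, 0.670 and 0.215 CPM (-3.58 ± 0.28).

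The 4 LPS libraries share none with the unstimulated comparison and measure the genotype difference again under another condition. With LPS, 4900 genes (30.6%) were called between KO and WT. Of the 3463 genes called without LPS, 2817 (81.3%) had the same sign with LPS, 1817 were called in the same direction and 169 in the opposite one. For the 590 genes that changed by at least 2-fold these numbers were 551 (93.4%), 346 and 11. Over all genes tested the share with the same sign was 63.6%. The test of the difference between both conditions, the genotype by LPS interaction, called 1920 genes (12%), among them 830 of the 3463 and 114 of the 590. These counts lean on single LPS libraries: the LPS comparison called 3138 genes without WT LPS replicate 2 and 3005 without KO LPS replicate 2, and the interaction called 1212 and 1162 genes without these and 3079 without KO LPS replicate 1.

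All 12 of the largest rises were called in the same direction with LPS, and 10 of the 12 largest falls. CCL13 (3.05 ± 0.08 with LPS), DLK1 (3.19 ± 0.25) and CIITA (-2.17 ± 0.09) differed with LPS by amounts near those without it. FOSB (0.09 ± 0.30) and TGM5 (-0.52 ± 0.26) were the 2 falls not called with LPS. Among genes of the lists, FCGR1A differed by 0.06 ± 0.07 with LPS against 1.38 without (interaction adjusted p = 1.85e-08), and S100A9 by 0.56 ± 0.06 against 1.75 (interaction adjusted p = 3.82e-09). AXL did so by 0.11 ± 0.07 against -0.71, and KCNJ15 by 0.21 ± 0.17 against 3.05. ISG15 (2.27 ± 0.27, interaction adjusted p = 0.352) and IFITM3 (1.33 ± 0.10, interaction adjusted p = 0.983) stayed higher in KO without a called difference between the conditions.

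**Figure D5:**
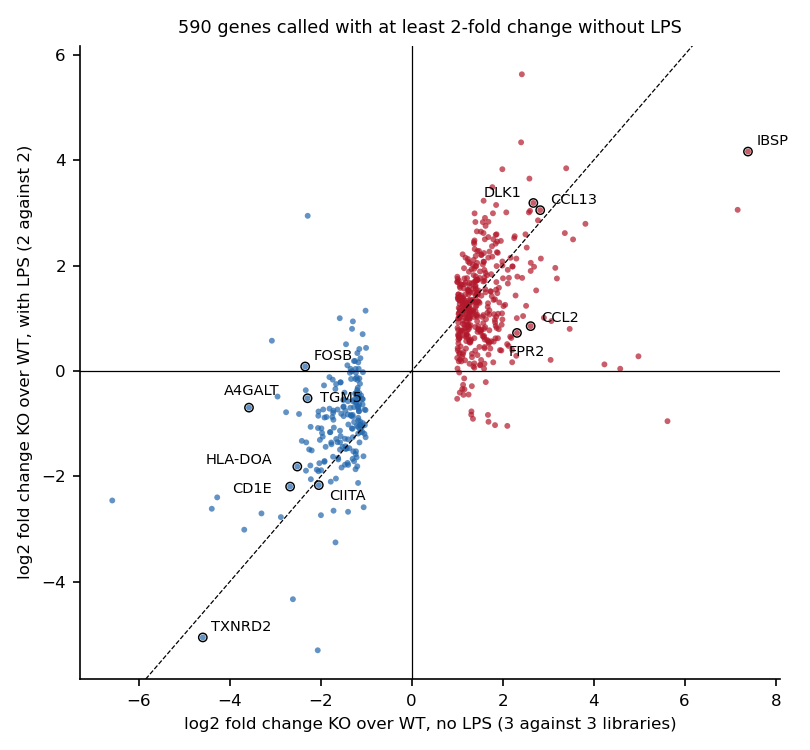
Log2 fold change of KO over WT with LPS (2 against 2 libraries) against that without LPS (3 against 3) for the 590 genes called with at least 2-fold change without LPS; the dashed line marks equal values. Most points keep their sign, CCL13, DLK1 and CIITA lie near the dashed line, and CCL2, FPR2, FOSB, TGM5 and A4GALT lie closer to 0 with LPS.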

How the data were processed

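mRNA libraries of microglia-like cells were sequenced, and the table deposited by the authors holds unnormalized counts for each gene in 12 libraries, of which 6 are described. Per the submitters' processing notes, CASAVA 1.7, Cufflinks and the build GRCh38 were used. The aligner settings, the annotation and the use of strand were not given in the sources used here. Of 57992 gene IDs, 24552 had no count in any library. Symbols of 41445 IDs came from the gene name table, 15943 from GENCODE 29, and 604 had none.

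Counts were tested with edgeR 4.0.16 (R 4.3.3) as deposited: genes kept by filterByExpr, TMM scaling, 1 mean for each of 5 groups over all 12 libraries, a robust quasi-likelihood F test (2-sided) and Benjamini-Hochberg adjustment over 16022 genes, with a threshold of 0.05. Taken alone, 3 against 3 libraries allow an exact permutation p no lower than 0.1. The common coefficient of biological variation was 0.0635. Lists were described by counts of calls and medians, with no test. The rule for named genes took MEF2C, then the 12 called genes with the greatest rise and the 12 with the greatest fall at a mean of at least 5 CPM with groups that did not overlap, called members of the lists (up to 5 per direction by adjusted p, those changed by at least 2-fold, and all measured members of lists of 12 or fewer), 4 risen and 4 fallen long non-coding RNAs at a mean of at least 2 CPM, and markers. Genes near 0 in one genotype, neighbours of named genes, and BST2, CXCL5, CXCL3, FOLR2, NFKB1, TLR4, FOS, EGR3, ZFP36, MKI67, CENPF, COL6A1, COL6A2 and FN1 fall outside it and were chosen after their values were seen. The comparison, the lists and the named-gene rule were chosen with earlier results of these data known. Promoter windows came from RefSeq on GRCh38.p14. Alternatives were DESeq2 1.42.0, other scalings and filters, a replicate block, only the 6 libraries, and leaving out each replicate. The test was checked on simulated data. Figures were drawn with matplotlib 3.10.9.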

Additional observations from a re-analysis of the deposited data

Results flagged for a closer look

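For 9 of the genes that differed most without LPS, or MEF2C itself, the genotype difference with LPS differed from that without it by edgeR's interaction test (Benjamini-Hochberg adjusted over all genes). Values are the difference with LPS minus that without, on the log2 scale, with SE. For MEF2C it was 0.34 ± 0.09 (adjusted p = 0.0124), from -0.47 without to -0.13 with LPS. Among the rises, CCL2 had -1.76 ± 0.09 (adjusted p = 5.47e-10), FPR2 had -1.59 ± 0.12 (adjusted p = 1.06e-08), GALNT18 had -0.71 ± 0.23 (adjusted p = 0.0483) and MARCO had -0.57 ± 0.12 (adjusted p = 0.004). All 4 stayed higher in KO, CCL2 by 0.85 and FPR2 by 0.72. Among the falls, FOSB had 2.43 ± 0.36 (adjusted p = 0.000101), TGM5 1.77 ± 0.30 (adjusted p = 0.000403), HLA-DOA 0.70 ± 0.15 (adjusted p = 0.00391) and CD1E 0.48 ± 0.12 (adjusted p = 0.00937). HLA-DOA and CD1E stayed lower in KO with LPS, by -1.81 and -2.19.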

How the results depend on the processing

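The 3463 calls between KO and WT became 2810 with DESeq2, 3403 with library-size scaling, 3342 with upper-quartile scaling, 3508 without a filter, 2823 at a mean of at least 5 CPM and 4426 in the 6 libraries alone. The share of calls that were higher lay between 45% and 53.1% (47.2% as reported). Changes of at least 2-fold numbered 219 instead of 590 at a mean of at least 5 CPM, where fewer genes were tested. Leaving out 1 WT or KO replicate gave 2593 to 2787 calls, 1268 to 1371 higher, 1324 to 1461 lower and 523 to 548 of at least 2-fold. Leaving out an LPS replicate gave 3005 to 5549 calls for KO against WT with LPS and 1162 to 3079 for the interaction, and the cause was not tested. Deviations of same-numbered WT and KO libraries correlated at 0.275, 0.066 and 0.001, so the numbers were not taken as pairs. With the replicate number as a block, 3091 genes were called, 553 by at least 2-fold, 4454 with LPS and 1543 for the interaction.

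Of 448 called genes followed through up to 13 alternatives, 391 kept call and direction in each in which they were tested, 57 lost the call in at least 1 and 0 reversed. The number of calls moved by over 1.5 times in 14 of 58 lists. Below the level of 3 counts, 0.154 to 0.193 CPM, differences were not detectable at this depth.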
